A study of Mus musculus with 22 samples.

Results

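The MAP kinase cascade was examined in the mouse PFC as 73 protein-coding genes of the deposited count table, which holds 39056 genes in all. Members were taken by gene symbol: the MAP kinases and the proteins named as interacting with them (Mapk followed by a digit), the 3 tiers of kinases above them (Map2k, Map3k and Map4k), and the dual-specificity phosphatases (Dusp followed by a digit). Of the 73 genes, 13 encode MAP kinases, 5 scaffold or interacting proteins, 7 MAP2Ks, 19 MAP3Ks, 5 MAP4Ks, 10 typical DUSPs, which act mainly on MAP kinases, and 14 atypical DUSPs, several of which act on other substrates. The samples came from 11 male mice of 8 to 12 weeks on a C57BL/6J background that carried 2 transgenes, tetO-EGFP/Rpl10a and CaMKIIα-tTA, in every group. The CaMKIIα promoter drives the transactivator, so that the EGFP-tagged ribosomal protein Rpl10a is made in cells where this promoter is active, mainly excitatory pyramidal neurons. Mice were injected i.p. 2 times a day for 4 days with normal saline (Control, n = 3), with ethanol to 2 g/kg a day (EtOH, n = 4), or with the same ethanol and, on day 4 only, ABT-888, a PARP inhibitor, at 25 mg/kg (EtOH + ABT-888, n = 4), and the PFC was taken 2 h after the last injection. Each mouse gave a TRAP library, of RNA pulled down with the tagged ribosomes and read as ribosomal engagement (RE), and a total-RNA (INPUT) library of all cells in the same lysate. No group received ABT-888 without ethanol.

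In a MAP kinase cascade, a MAP4K or a small GTPase activates a MAP3K, which phosphorylates a MAP2K, which in turn phosphorylates a MAP kinase on a threonine and a tyrosine of its activation loop. Map2k1 and Map2k2 activate the ERKs, such as Mapk3, Map2k4 and Map2k7 the JNKs (Mapk8, Mapk9 and Mapk10), and Map2k3 and Map2k6 the p38 kinases, of which Mapk11 is p38β and Mapk14 p38α. Scaffolds such as the JNK-interacting proteins (Mapk8ip1 to Mapk8ip3) bring kinases of successive tiers together, and typical DUSPs remove both phosphates again. In neurons, ERK signaling follows synaptic activity, while JNK and p38 signaling is known for responses to stress, and several DUSP genes are induced by the kinases that their products switch off.

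TRAP libraries held between 6570957 and 22002618 counted reads (median 15711482) and total-RNA libraries between 22132534 and 32421392 (median 28734687), and the members took from 0.508% to 0.577% of the reads in TRAP and from 0.467% to 0.542% in total-RNA. Levels are normalized CPM, which are counts scaled to the library size and by TMM over the 22 libraries. A member was called where the adjusted p was under 0.05, by the quasi-likelihood test of edgeR, with Benjamini-Hochberg adjustment over the 14072 genes tested. The test covered 65 of the 73 members. Map3k7cl, Mapk13, Mapk15, Dusp2, Dusp9, Dusp13, Dusp21 and Dusp27 had too few counts. The shallowest library was that of EtOH + ABT-888_TRAP mouse 6. The defining markers bore out the tissue label in part: in Control, all 6 astrocyte, 6 oligodendrocyte, 6 microglia and 5 endothelial markers were lower in TRAP than in total-RNA, but of the 5 excitatory neuron markers only Nrgn was higher, 3 (Slc17a7 and Neurod6 among them) were lower and Camk2a was not called, while 3 of 6 interneuron markers (Gad1, Gad2 and Slc32a1) were higher and 1 (Pvalb) was lower. The TRAP pool is therefore described here as RNA bound to the tagged ribosomes and not as RNA of 1 cell type. The strand setting of the counting is not given in the sources used here, so the level of a gene that shares exon sequence with a neighbour is uncertain. Such members are marked where they are described. Genes outside the 73 were not examined for such sharing.

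The sequences upstream of 5 members are shown because these genes carry the treatment results: Mapk11, which fell with EtOH, and Mapk8ip2, Map3k6, Dusp1 and Dusp5, which rose. Each is the run from 250 to 51 bases before the start in RefSeq (build GRCm38.p6), written 5′ to 3′ on the strand of the gene. Capitals mark matches, on either strand, to the cAMP response element (CRE, TGACGTCA) or its half-site (TGACG, which lies within the CRE), the GC box (GGGCGG), the E-box (CACGTG), the TATA box (TATAAA), the AP-1 site (TGANTCA) and the CArG box, which serum response factor binds.
Mapk11 (chr15:89149657-89149856, minus strand): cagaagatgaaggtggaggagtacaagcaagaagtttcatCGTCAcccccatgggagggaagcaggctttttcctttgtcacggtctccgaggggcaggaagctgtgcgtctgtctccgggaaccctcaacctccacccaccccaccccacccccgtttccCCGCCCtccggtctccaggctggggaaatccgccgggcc
Mapk8ip2 (chr15:89453661-89453860, plus strand): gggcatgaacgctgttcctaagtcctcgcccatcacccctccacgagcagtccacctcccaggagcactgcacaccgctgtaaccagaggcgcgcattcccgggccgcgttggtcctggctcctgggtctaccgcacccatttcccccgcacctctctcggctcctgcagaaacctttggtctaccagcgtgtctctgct
Map3k6 (chr4:133240568-133240767, plus strand): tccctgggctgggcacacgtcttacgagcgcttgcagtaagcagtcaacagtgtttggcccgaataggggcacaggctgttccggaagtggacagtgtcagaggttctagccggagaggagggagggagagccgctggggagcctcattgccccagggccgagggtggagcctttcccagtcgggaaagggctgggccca
Dusp1 (chr17:26508523-26508722, minus strand): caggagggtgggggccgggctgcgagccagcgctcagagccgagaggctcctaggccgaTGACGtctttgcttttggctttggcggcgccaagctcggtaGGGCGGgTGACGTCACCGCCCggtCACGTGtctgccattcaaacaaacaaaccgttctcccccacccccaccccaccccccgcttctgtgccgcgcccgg
Dusp5 (chr19:53528895-53529094, plus strand): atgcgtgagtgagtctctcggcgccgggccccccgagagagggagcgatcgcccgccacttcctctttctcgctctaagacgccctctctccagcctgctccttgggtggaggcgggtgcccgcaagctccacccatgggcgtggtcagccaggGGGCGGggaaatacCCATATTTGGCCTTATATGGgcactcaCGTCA
Dusp1 held the full CRE at positions -143 to -136 from the start, with a GC box on each side of it and an E-box close by, and a further half-site at -191 to -187. Only 0.862% of the 27025 mouse promoters searched in the same way held the full CRE, against 2 of the 55 members with a sequence, Dusp1 and Dusp8. Dusp5 held a pair of adjacent CArG boxes, at -82 to -73 and -72 to -63. It was the only member of the 55 with a CArG box, which 1.08% of all promoters held. In Mapk11, a CRE half-site and a GC box were found, and in Mapk8ip2 and Map3k6 none of these letters occurred in this window. Among the 55 members, 27 (49.1%) held a GC box and none a TATA box in this window, against 24.5% and 9.48% of all promoters. The window ends 51 bases before the start, so a TATA box nearer to the start could not be found. A match describes letters and not a site in use.

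In Control, levels per kb of exon sequence (normalized CPM per kb) were led by members of the ERK and JNK branches. In Control_TRAP, the JNK scaffold Mapk8ip1 at 102.3 ± 19.1 (SD, n = 3) and Map2k1 at 95.5 ± 9.48 were among the highest. These levels lie within their SDs of each other. Of the phosphatases, Dusp3 (58.6 ± 4.57), which shares exon sequence with Gm20659, and Dusp14 (53.1 ± 6.55) had the highest levels and lay within their SDs of each other. In Control_total-RNA Map2k1 was the highest (72.4 ± 3.34), with Mapk10 (57.7 ± 2.59) and Map2k4 (55.3 ± 2.06) below it, which lie within 1 SD of each other. Members that carry the largest treatment effects were much less abundant: Mapk11 stood at 4.42 ± 1.24 per kb in TRAP and 9.93 ± 0.138 in total-RNA, and Map3k6 at 0.493 ± 0.298 and 0.476 ± 0.0774.

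Setting Control_TRAP against Control_total-RNA, in the same 3 mice, asked which transcripts were more or less engaged with tagged ribosomes than their level in the tissue. Of the 65 members tested, 40 were called (61.5%), which is close to the 59.9% called among all 14072 genes. Of these, 21 were higher in TRAP (29.5% of all genes were) and 19 lower (30.4% of all genes), and 46 members had groups that did not overlap (66.9% of all genes). The median log2 fold change of the members was 0.009, against 0.015 over all genes. In the ERK branch, Mapk3 was higher in TRAP by 0.72 on the log2 scale (SE 0.11), Map2k1 by 0.38 (0.09) and Map2k2 by 1.04 (0.11). In the JNK branch, Mapk8 fell by 0.59 (SE 0.08), Mapk10 fell by 0.49 (0.08) and their activator Map2k4 fell by 0.31 (0.08), while Mapk9 was not called (0.11, SE 0.09). The other JNK activator, Map2k7, added after its values were seen, was higher in TRAP (0.49, SE 0.14), at 27.3, 37.2 and 27.8 normalized CPM against 22.3, 23 and 19.9 in total-RNA without overlap, and it shares exon sequence with Gm49320 on the same strand. Of the p38 kinases, Mapk11 was lower in TRAP (-1.17, SE 0.17) and Mapk14 was not called (0.23, SE 0.10). The JNK scaffolds went apart, with Mapk8ip1 higher (0.98, SE 0.14), Mapk8ip2 lower (-0.52, SE 0.12) and Mapk8ip3, which shares exon sequence with 3 neighbours, not called (-0.20, SE 0.09). In the single fit over 22 libraries, 27 members were called, and Mapk11 (adjusted p = 0.125), Map2k4 (0.0534) and Mapk8ip2 (0.0743) were not among them. The loss of glial and vascular markers from TRAP stands beside these values, and its part in the lower members was not tested.

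The largest differences between the pools in Control were in phosphatases, MAP3Ks and MAP4Ks for the most part. Dusp26, an atypical phosphatase found mainly in neurons, was at 87.9 ± 13.7 normalized CPM in TRAP and at 34.4 ± 2.48 in total-RNA, a log2 fold change of 1.34 (SE 0.12, adjusted p = 3.75e-06). The other 5 highest were Dusp5 (1.30, SE 0.19), Map4k1 (1.16, SE 0.39), the atypical MAP kinase ERK4 gene Mapk4 (1.04, SE 0.09), Map2k2 and Mapk8ip1. Map4k1 was a low transcript (2.01 ± 0.176 against 0.907 ± 0.439 normalized CPM) and was called in 4 of the 6 fits that left out 1 library. At the other end, Map3k15 (-2.64, SE 0.54), Map3k19 (-2.24, SE 0.35), Dusp10 (-2.24, SE 0.42), Dusp23 (-2.14, SE 0.38), Dusp16 (-1.49, SE 0.21) and Map4k4 (-1.21, SE 0.12) were lower in TRAP. All 6 were called in each of the 6 fits that left out 1 library. In these fits Map3k15 ran from -3.6 to -2.08, Map3k19 from -2.92 to -1.84 and Dusp10 from -2.84 to -1.75. Map3k15 was at 0.222 ± 0.172 normalized CPM in Control_TRAP. Dusp10 and Dusp16, both phosphatases of JNK and p38, stood at 1.89 ± 1.44 and 5.56 ± 1.69 normalized CPM in TRAP against 8.04 ± 0.936 and 15.6 ± 1.99 in total-RNA. The groups of all 12 of these members did not overlap (66.9% of all genes), which follows largely from their choice as the largest called differences. Dusp5, Mapk4, Mapk8ip1 and Map3k15 share exon sequence with a gene on the opposite strand.

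**Figure D1:**
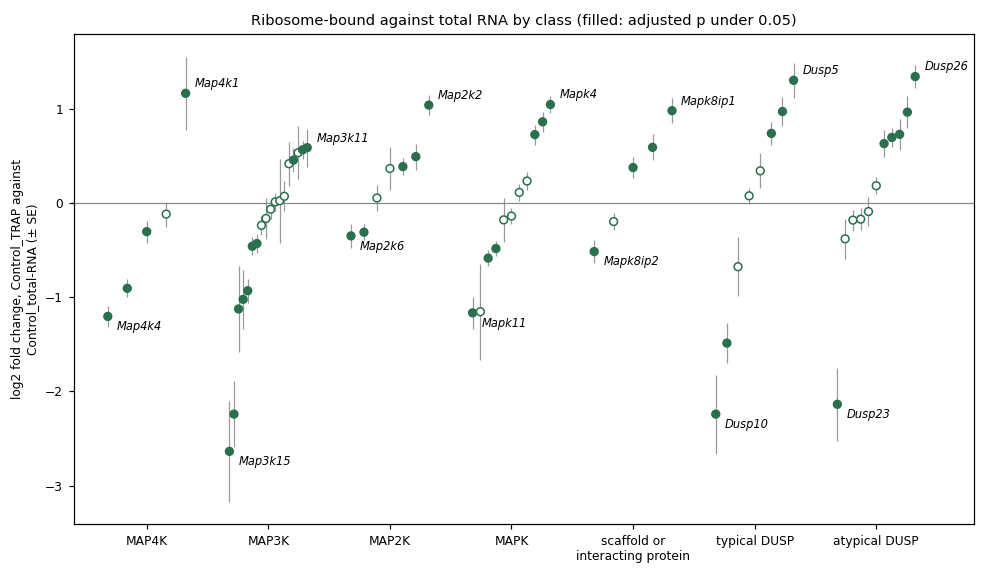
Log2 fold change of Control_TRAP against Control_total-RNA (y axis, ± SE, n = 3 mice each) for the 65 tested members, grouped on the x axis by class, with filled points where the adjusted p was under 0.05. Every class held members on both sides of 0, from Map3k15 at -2.64 to Dusp26 at 1.34. The value of Map3k15 ran from -3.6 to -2.08 in fits that left out 1 library.

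Among treated mice, 31 members were called between the pools in EtOH (47.7%, against 50.7% of all genes), 13 higher in TRAP (24.3% of all genes) and 18 lower (26.5% of all genes). In EtOH + ABT-888, 31 were called (47.7%, against 41% of all genes), 16 higher (19.5% of all genes) and 15 lower (21.5% of all genes). Of the EtOH calls, 26 were also called in Control and in the same direction (83.9% of the EtOH calls and 65% of the Control calls), and of the EtOH + ABT-888 calls 28 were (90.3% and 70%). None was called in the opposite direction, and 25 members were called the same way in all 3 treatments. Map3k6 was called between the pools in both treated groups and not in Control, where its log2 fold change was 0.02 (SE 0.45).

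EtOH changed the TRAP level of 4 members against Control_TRAP, a share of 6.15% against 5.24% of all genes tested. A TRAP level alone does not separate RE from the level of the transcript. Mapk8ip2 and Mapk1ip1 rose (2.77% of all genes did), and Mapk11 and Dusp19 fell (2.47% of all genes). At an unadjusted p under 0.05 there were 20 members (23.1% of all genes), and 16 had groups that did not overlap (22.3% of all genes). Among the markers in TRAP, 1 of 5 for excitatory neurons (Neurod6) and 1 of 6 for microglia (P2ry12) were lower with EtOH, with summed levels of 4770 to 6150 normalized CPM in Control and 4240 to 5630 in EtOH for the first list, and 12.7 to 26.2 and 4.6 to 31.8 for the second, of which 1 marker was at 0 in an EtOH library. EtOH_TRAP mouse 2 alone was at 31.8, and the other 3 (4.6, 10.4 and 7.68) lay below every Control library. The same mouse had the highest summed astrocyte (207), oligodendrocyte (723) and endothelial (24) markers of its group, and without it 2 members were called. None of the interneuron, astrocyte, oligodendrocyte or endothelial markers was called there, and the part of the markers in the members' changes was not tested. Mapk8ip2 encodes JIP2, a scaffold for JNK and p38 kinases in neurons. It stood at 93.1, 82.7 and 96.4 normalized CPM in the Control_TRAP libraries and at 179, 216, 184 and 160 in EtOH_TRAP, so that every EtOH library lay above every Control library. Its log2 fold change was 1.05 (SE 0.15, adjusted p = 0.00421 by edgeR's quasi-likelihood test), and it was called in all 7 fits that left out 1 library. Mapk1ip1 stood at 17.4, 21.5 and 22.6 in Control_TRAP and at 37.9, 35.4, 31.0 and 33.5 in EtOH_TRAP, again without overlap (0.76, SE 0.17, adjusted p = 0.0279). Its call was kept in 2 of the 7 fits that left out 1 library, with adjusted p up to 0.154 (without Control_TRAP mouse 1). Its exons share 195 bases with Ppp2r2d on the opposite strand.

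Mapk11, which encodes p38β, showed the largest fall. It was at 10.5, 11.0 and 16.9 normalized CPM in Control_TRAP and at 2.62, 0.557, 1.23 and 6.12 in EtOH_TRAP. All EtOH libraries were below all Control libraries, and the log2 fold change was -2.30 (SE 0.57, adjusted p = 0.0397 by edgeR's quasi-likelihood test). The fold change ran from -3.17 without EtOH_TRAP mouse 9 to -1.95 without EtOH_TRAP mouse 5. The call rested on every library but EtOH_TRAP mouse 9, the highest of its group: the adjusted p ran from 0.00303 without mouse 9 to 0.17 without Control_TRAP mouse 7. Dusp19, an atypical phosphatase of the JNK branch, stood at 16.8, 21.7 and 18.7 in Control_TRAP and at 7.13, 4.92, 7.76 and 8.70 in EtOH_TRAP (-1.41, SE 0.24, adjusted p = 0.0092), also without overlap, and was called in 5 of the 7 fits. It shares 131 bases of exon with Nup35 on the same strand. The members with the next smallest p were Map2k1, at 287, 347 and 337 in Control_TRAP and 499, 509, 426 and 377 in EtOH_TRAP (0.50, SE 0.15, adjusted p = 0.0707), and Dusp18 (-0.73, SE 0.23, adjusted p = 0.084). Neither was called by edgeR's quasi-likelihood test, but both were by exactTest (adjusted p = 0.035 for Map2k1 and 0.04 for Dusp18) and by DESeq2 (0.0234 and 0.0312). Without EtOH_TRAP mouse 9 the quasi-likelihood test also called both (adjusted p = 0.0295 and 0.0403). Other tests gave higher counts of members, 9 by exactTest and 10 by DESeq2, and the fits that left out 1 library gave from 1 (without Control_TRAP mouse 4 or mouse 7) to 8 (without EtOH_TRAP mouse 9).

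In total-RNA, EtOH changed 16 of the 65 members (24.6%, against 17.6% of all genes), 11 higher (9.04% of all genes) and 5 lower (8.6% of all genes). At an unadjusted p under 0.05 there were 24 members (33.9% of all genes), and 22 had groups that did not overlap (30.5% of all genes). The 4 members called in TRAP were among the 16, each in the same direction, in libraries from the same mice. By class, 6 of 18 MAP3Ks, 3 of 11 MAP kinases, 2 of 5 scaffold or interacting proteins, 2 of 8 typical DUSPs and 3 of 11 atypical DUSPs were called, and none of the 7 MAP2Ks or 5 MAP4Ks. The median log2 fold change was 0.038 over the members and 0.001 over all genes. Total-RNA comes from every cell of the tissue, so fewer cells of a type and less RNA per cell cannot be told apart in these values. The summed level of 6 microglia markers lay between 225 and 238 normalized CPM in Control_total-RNA, between 77.1 and 112 in EtOH and between 61.9 and 180 in EtOH + ABT-888, none of them was at 0, and 5 of the 6 were lower with EtOH. Of the other markers, 3 of 5 for excitatory neurons and 2 of 5 for endothelial cells were lower, 1 of 6 for interneurons and 1 of 6 for oligodendrocytes were higher, and 1 of 6 for astrocytes was higher and 1 lower. The summed interneuron markers lay between 802 and 865 in Control and between 915 and 1000 in EtOH, without overlap. The part of these markers in the members' changes was not tested.

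**Figure D2:**
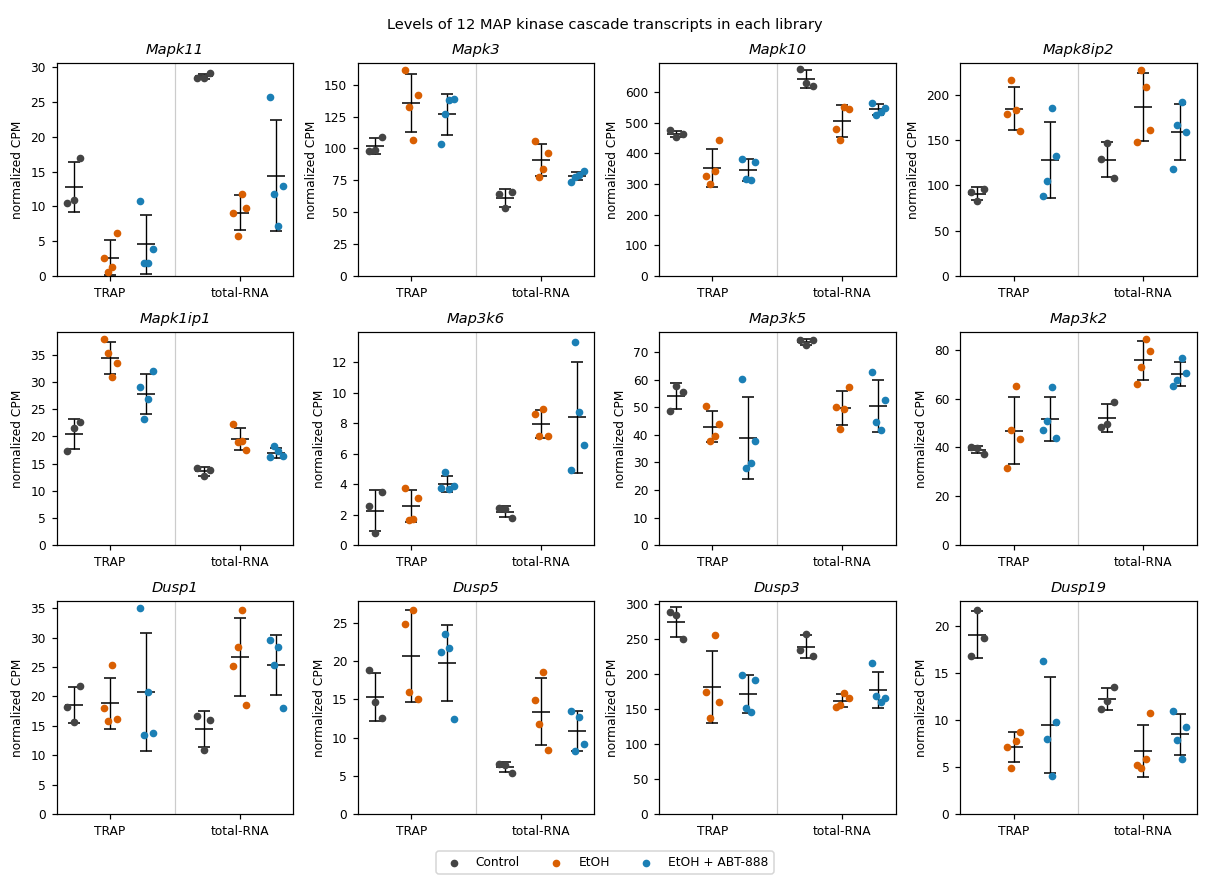
Normalized CPM (y axis, from 0) of 12 members in each of the 22 libraries, with the 3 treatments side by side within TRAP and within total-RNA. Points are mice and bars the mean ± SD. Mapk11 lay between 28.4 and 29.1 in the Control_total-RNA libraries and at 11.8 or less in the EtOH_total-RNA libraries, while Map3k6 rose in total-RNA and overlapped between Control and EtOH in TRAP.

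Among the MAP3Ks, Map3k6 had the largest rise with EtOH of any member tested in total-RNA. Its product, ASK2, is a stress-responsive kinase that forms complexes with ASK1, the product of Map3k5. Map3k6 was at 2.41, 2.38 and 1.78 normalized CPM in Control_total-RNA and at 8.59, 7.18, 8.92 and 7.15 in EtOH_total-RNA. The groups were far apart, with a log2 fold change of 1.87 (SE 0.20, a fold of 3.65, adjusted p = 0.000304 by edgeR's quasi-likelihood test). Map3k5 went the other way, from 74.2, 72.4 and 74.2 to 50.1, 42.3, 49.3 and 57.2 (-0.57, SE 0.11, adjusted p = 0.00632). Map3k2, an activator of the ERK5 and JNK branches, rose from 48.2, 49.5 and 58.8 to 65.9, 72.8, 84.6 and 79.4 (0.54, SE 0.12, adjusted p = 0.011). Both of these groups were also without overlap. The calls of Map3k6 and Map3k5 were kept in all 7 fits that left out 1 library and that of Map3k2 in 5. Map3k15 (0.97, SE 0.29), Map3k21 (0.88, SE 0.27) and Map3k20 (0.47, SE 0.15) were higher with adjusted p between 0.0341 and 0.0463, and each was called in only 2 or 3 of the 7 fits that left out 1 library. Map3k15 was near 1.40 normalized CPM in Control and overlaps Pdha1 on the opposite strand.

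Of the MAP kinases, Mapk11 fell in total-RNA as in TRAP. It was at 28.5, 28.4 and 29.1 normalized CPM in Control_total-RNA, the tightest Control group of the 3 MAP kinases called, and at 9.00, 5.77, 11.8 and 9.81 in EtOH_total-RNA (-1.66, SE 0.19, adjusted p = 0.000365). Mapk3, which encodes ERK1, rose from 64.5, 52.9 and 66.2 to 106, 77.9, 83.7 and 96.6 (0.57, SE 0.13, adjusted p = 0.011), and Mapk10, the neuronal JNK3, fell from 676, 631 and 621 to 481, 442, 553 and 546 (-0.34, SE 0.10, adjusted p = 0.038). None of these groups overlapped. The call of Mapk11 was kept in all 7 fits that left out 1 library, that of Mapk3 in 6 and that of Mapk10 in 2. The interacting proteins Mapk8ip2 (0.54, SE 0.16, adjusted p = 0.0306) and Mapk1ip1 (0.53, SE 0.13, adjusted p = 0.018) were higher in total-RNA as well, but their calls were kept in 2 and 4 of the 7 fits that left out 1 library, with adjusted p up to 0.133 (without Control_total-RNA mouse 7) and 0.0952 (without Control_total-RNA mouse 4).

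Among the phosphatases, Dusp1 and Dusp5 rose. Both are inducible typical DUSPs of the nucleus, and Dusp5 acts on ERK. Dusp1 was at 16.6, 10.9 and 16 normalized CPM in Control_total-RNA and at 25.1, 28.4, 34.6 and 18.6 in EtOH_total-RNA (0.88, SE 0.21, adjusted p = 0.0125 by edgeR's quasi-likelihood test). Dusp5 was at 6.61, 6.39 and 5.37 and at 15, 11.8, 18.5 and 8.37 (1.14, SE 0.24, adjusted p = 0.00716). The call of Dusp5 was kept in all 7 fits that left out 1 library and that of Dusp1 in 6, with an adjusted p of 0.0695 without Control_total-RNA mouse 4. EtOH mouse 9 was the lowest EtOH library for both genes, and still lay above every Control library. In TRAP, Dusp1 stood at 18.1, 15.6 and 21.7 in Control and 18, 15.8, 25.3 and 16.2 in EtOH (0.04, SE 0.22), and Dusp5 had a log2 fold change of 0.45 (SE 0.25, adjusted p = 0.298). Both pairs of groups overlapped there. Dusp11, an atypical member that acts on RNA, rose from 32.6, 31.4 and 32.4 to 56.5, 61.3, 44.5 and 45.9 (0.70, SE 0.13, adjusted p = 0.00384). The exons of Dusp5, Dusp1 and Dusp11 share 547, 11 and 45 bases with a gene on the opposite strand.

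Dusp3 and Dusp19, atypical phosphatases known to act on ERK and JNK kinases or their activators, fell in total-RNA. Dusp3 went from 234, 257 and 226 normalized CPM to 153, 156, 174 and 166 without overlap (-0.56, SE 0.10, adjusted p = 0.0026), and in TRAP from 289, 285 and 250 to 174, 137, 255 and 160, where mouse 8 overlapped with Control and the adjusted p was 0.0972. Its exons share 604 bases with Gm20659 on the opposite strand. Dusp19 went from 11.2, 12 and 13.5 to 5.22, 4.92, 5.91 and 10.8 (-0.88, SE 0.24, adjusted p = 0.0276), with mouse 9 just below the lowest Control library, and its call was kept in 1 of the 7 fits that left out 1 library. For the 16 members together, the count was between 6 (without Control_total-RNA mouse 4) and 22, being 8 without Control_total-RNA mouse 1 and 9 without mouse 7. A single fit over all 22 libraries, in which both pools share 1 estimate of the spread, called 1 member, Map3k6.

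With EtOH + ABT-888, 0 members passed edgeR's quasi-likelihood test against Control in either pool, where 0.476% of all genes in TRAP and 0.263% in total-RNA were called. At an unadjusted p under 0.05 there were 16 members in TRAP and 17 in total-RNA, against 12.1% and 15.9% of all genes. Leaving out 1 library, the count ran from 7 (without Control mouse 1) to 20 in TRAP. In total-RNA it ran from 11 (without Control mouse 7) to 25. Both were highest without EtOH + ABT-888 mouse 3. Groups that did not overlap with Control were found for 15 members in TRAP (14% of all genes) and 16 in total-RNA (16.9% of all genes). Of the 5 excitatory neuron markers, 2 were lower in TRAP and 1 in total-RNA (Neurod6 in both), and none of the other lists had a marker called. The summed oligodendrocyte markers in TRAP ran from 339 to 441 in Control and from 318 to 1460 in EtOH + ABT-888, where mouse 11 was the highest. Their part in the members' values was not tested. The alternatives exactTest and DESeq2 each called 1 member in TRAP and 5 in total-RNA. These comparisons use the same Control libraries as those of EtOH, so the values are set side by side without a test between them. In total-RNA, Map3k6 was at 4.97, 13.4, 8.72 and 6.56 normalized CPM, above every Control library (1.94, SE 0.34, adjusted p = 0.0501). It was called by exactTest (adjusted p = 2.29e-05), by DESeq2 (3.32e-06), with no filter (6.82e-05), in the single fit over 22 libraries (0.0408) and with RLE scaling (0.0497). Dusp5 was at 13.4, 8.29, 12.7 and 9.12 (0.83, SE 0.21, adjusted p = 0.112) and Dusp1 at 29.6, 25.3, 28.4 and 18.1 (0.81, SE 0.21, adjusted p = 0.116). These are the 3 members with the smallest p among those with a higher level. None of the 3 overlapped with Control (16.9% of all genes), which follows largely from this choice. Dusp5 and Dusp1 were called by exactTest (adjusted p = 0.0189 and 0.0178), by DESeq2 (0.00995 and 0.0112) and with no filter (0.0296 and 0.015). Mapk11 was at 25.7, 11.8, 7.20 and 12.9 (-0.99, SE 0.33, adjusted p = 0.192), and mouse 3 stood near the Control libraries while the other 3 lay in or near the range of EtOH. Among lower levels the smallest p belonged to Map3k5 (-0.54, SE 0.14, adjusted p = 0.122), Dusp3 (-0.43, SE 0.12, adjusted p = 0.144) and Mapk11. Map3k5 was called by exactTest (adjusted p = 0.0271), by DESeq2 (0.0228) and with no filter (0.0464), and Mapk11 with no filter (0.019). Without mouse 3, the quasi-likelihood test called Map3k5 (adjusted p = 0.0144), Dusp3 (0.0147), Mapk11 (-1.43, adjusted p = 0.00683) and Map3k6 (2.13, adjusted p = 0.00518). It also called Map3k6 without mouse 10 (1.92, adjusted p = 0.0295). Of the 7 fits that left out 1 library, only these 2 called Map3k6, and its adjusted p ran up to 0.286.

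In EtOH + ABT-888_TRAP, the lower members with the smallest p were Dusp3, at 199, 151, 146 and 191 normalized CPM (-0.66, SE 0.16, adjusted p = 0.0953), the ERK phosphatase Dusp7 (-0.52, SE 0.17, adjusted p = 0.241) and Mapk10 (-0.41, SE 0.14, adjusted p = 0.241). Those with a higher level were Map3k4 (0.54, SE 0.18, adjusted p = 0.236), Map3k11, which encodes the mixed lineage kinase MLK3 (0.60, SE 0.22, adjusted p = 0.277), and Mapk1ip1 (0.45, SE 0.20, adjusted p = 0.391). Each of these 6 had groups without overlap (14% of all genes), which follows largely from their choice by p. Dusp3 was called there by exactTest (adjusted p = 0.0173), by DESeq2 (0.00824), with no filter (0.0173), in the single fit over 22 libraries (0.0281) and without mouse 3 (0.0368). Map3k11 shares exon sequence with Pcnx3 on the opposite strand. Mapk8ip2 was at 88.9, 105, 185 and 133 in EtOH + ABT-888_TRAP, with 1 library at the Control level and 1 at the EtOH level. Mapk11 was at 10.7, 1.80, 1.85 and 3.86 there (-1.48, SE 0.52, adjusted p = 0.267), and Dusp19 at 16.2, 7.96, 4.06 and 9.78 (-1.0, SE 0.36, adjusted p = 0.279). In both, mouse 3 was the highest of the group. Mapk11 was called with no filter (adjusted p = 0.00805) and without mouse 3 (-2.31, adjusted p = 0.011), and its fold change ran to -1.19 in the fits that left out 1 library. Mouse 3 also had the highest summed microglia (38.2, against 4.54 to 21.6 in the other 3) and astrocyte markers (174, against 68.9 to 150) of its group in TRAP. In this group 1 library weighed on the calls: without mouse 3, 3 members were called in TRAP and 5 in total-RNA, and without mouse 10 there was 1 in total-RNA.

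**Figure D3:**
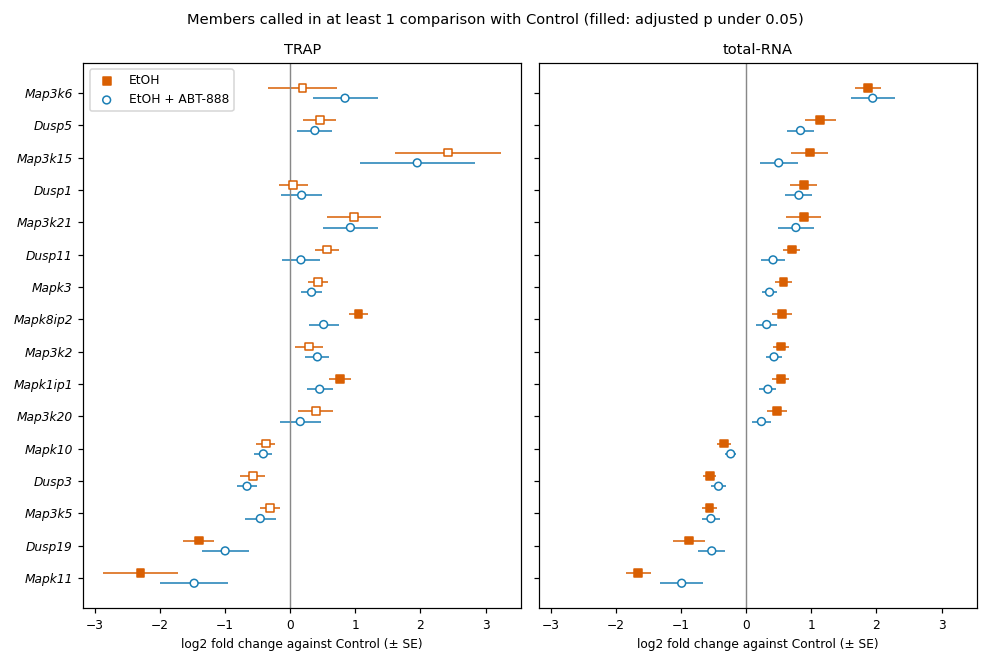
Log2 fold change against Control (x axis, ± SE) of the 16 members called in at least 1 comparison with Control, in TRAP (left) and total-RNA (right), for EtOH (squares, n = 4) and EtOH + ABT-888 (circles, n = 4) against the same 3 Control mice. Filled symbols mark an adjusted p under 0.05, which 4 members reached in EtOH_TRAP, 16 in EtOH_total-RNA and none with EtOH + ABT-888.

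Set directly against EtOH, EtOH + ABT-888 had 0 members called in TRAP and 0 in total-RNA, with edgeR's quasi-likelihood test, exactTest and DESeq2, and 0% of all genes were called in either pool. None of the members had groups without overlap (0.945% of all genes in TRAP and 1.36% in total-RNA). At an unadjusted p under 0.05 there was 1 member in TRAP, Mapk8ip2 (-0.53, SE 0.22, adjusted p = 1), and 0 in total-RNA, against 0.966% and 1.91% of all genes. For members that EtOH moved in total-RNA, the difference of EtOH + ABT-888 from EtOH on the log2 scale was 0.08 (SE 0.27) for Map3k6, -0.08 (SE 0.20) for Dusp1, -0.30 (SE 0.25) for Dusp5, 0.13 (SE 0.12) for Dusp3 and 0.67 (SE 0.34) for Mapk11. The tests of whether a treatment acted differently in TRAP than in total-RNA called 0 members for EtOH (0.0213% of all genes) and 0 for EtOH + ABT-888 (0% of all genes), also by the likelihood ratio test and DESeq2, with 6 and 1 members at an unadjusted p under 0.05 (4.87% and 3.38% of all genes). Of these 6, Map3k6 had the smallest p, with -1.69 on the log2 scale for the EtOH effect in TRAP minus that in total-RNA (SE 0.56, adjusted p = 0.802). For Dusp1 this difference was -0.86 (SE 0.40, adjusted p = 1). A rise in total-RNA that was not called in TRAP was thus not shown to differ between the pools. In the fits that left out 1 library, from 2 to 8 members were at an unadjusted p under 0.05 for the EtOH difference. For that of EtOH + ABT-888, from 0 to 5 members were.

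Several kinases at the centre of the cascade were not called in EtOH_total-RNA against Control with the quasi-likelihood test of edgeR. Mapk9 (0.01, SE 0.09) and Mapk14 (-0.03, SE 0.11) were within 1 SE of 0 in EtOH_total-RNA, and Mapk8 was at -0.13 (SE 0.10, adjusted p = 0.349). Map2k1, with a log2 fold change of 0.50 in EtOH_TRAP, was at 0.04 (SE 0.09) in EtOH_total-RNA. Map2k2 was at -0.31 (SE 0.12, adjusted p = 0.0825) and Map2k4 at -0.01 (SE 0.09) there. Of the scaffolds, Mapk8ip1 was at -0.17 (SE 0.12) and Mapk8ip3 at -0.01 (SE 0.10), and of the MAP3Ks Map3k12, the dual leucine zipper kinase of axon injury responses, was at -0.21 (SE 0.10, adjusted p = 0.156). The exons of Map3k12 and Mapk8ip1 overlap genes on the opposite strand.

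The phosphatase Dusp6, which acts on ERK in the cytoplasm and is a known readout of ERK activity, varied widely between the mice of each treated group. In the Control mice it was at 49.5, 48.4 and 50.7 normalized CPM in TRAP and at 46.7, 47.1 and 45.8 in total-RNA. The EtOH libraries were at 22.3, 25.5, 51 and 5.03 in TRAP and at 37.0, 27.5, 49.5 and 14.8 in total-RNA, and the EtOH + ABT-888 libraries at 39, 12, 30.6 and 5.98 and at 55.9, 17.4, 39.3 and 13, each in the order of the mice. Mouse 8 of EtOH was at the Control level in both pools and mice 9 and 11 were the lowest of their groups in both. With this spread, the log2 fold changes were -0.90 (SE 0.48, adjusted p = 0.276) and -1.16 (SE 0.45, adjusted p = 0.327) in TRAP and -0.53 (SE 0.27, adjusted p = 0.192) and -0.57 (SE 0.40, adjusted p = 0.523) in total-RNA, for EtOH and EtOH + ABT-888. Dusp4, its nuclear relative, was at most 8.80 normalized CPM in any library. It was not called between treatments, but was lower in TRAP than in total-RNA in EtOH (-1.56, SE 0.51, adjusted p = 0.0226) and in EtOH + ABT-888 (-2.13, SE 0.45, adjusted p = 0.00292) by edgeR's quasi-likelihood test.

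**Figure D4:**
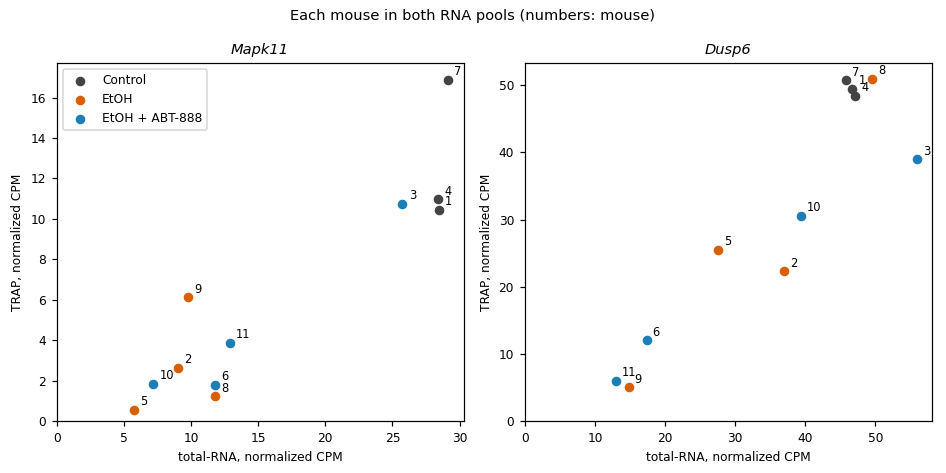
Normalized CPM of Mapk11 (left) and Dusp6 (right) in total-RNA (x axis) and TRAP (y axis), 1 point per mouse with its number, coloured by treatment, with the pools matched by number. For Mapk11, EtOH + ABT-888 mouse 3 lay beside the Control mice. For Dusp6, the 3 Control mice lay together and the treated mice spread from 5.03 to 51 in TRAP.

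Other genes of the pathway were described from a list of 44, of which 40 were tested (Raf kinases and scaffolds, downstream kinases, related kinases, Sprouty and Spred inhibitors, tyrosine phosphatases and Gadd45 genes). In Control, 19 were higher (29.5% of all genes tested were) and 7 lower (30.4% of all genes) in TRAP. The tyrosine phosphatase Ptpn5 (STEP), a neuronal phosphatase of ERK and p38, was at 970.1 ± 101 normalized CPM in TRAP and 180.8 ± 18.7 in total-RNA (2.41, SE 0.11). EtOH lowered 4 of the 40 in TRAP (2.47% of all genes) and raised 0 (2.77% of all genes): the ribosomal S6 kinase Rps6ka3 (-0.81, SE 0.13), the Nemo-like kinase Nlk (-0.76, SE 0.14), the ERK pathway inhibitor Spred3 (-0.95, SE 0.21) and Ptpn7 (-0.84, SE 0.21). In total-RNA it raised 5 of the 40 (9.04% of all genes), among them the ERK and p38 target kinase Mknk2 (0.78, SE 0.13) and the scaffold Ksr1 (0.57, SE 0.14), and lowered 4 (8.6% of all genes), which were Rps6ka1, Rps6ka3, Nlk and Spred3. With EtOH + ABT-888, 0 of the 40 were called against Control in either pool by edgeR's quasi-likelihood test. Of all genes, 0.476% were called in TRAP and 0.263% in total-RNA. Set directly against EtOH, 0 of the 40 were called in either pool as well (0% of all genes).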

How the data were processed

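The authors sequenced rRNA-depleted TRAP and total-RNA libraries, aligned the reads to mm10 with STAR and deposited raw read counts per Ensembl gene from featureCounts. Versions, the strand setting and the handling of multi-mapped reads are not given in the sources used here. Symbols came from GENCODE M21, in which 38872 of the 39056 genes and all 73 members were found. Genes with at least 500 counts in total and detected in at least 3 libraries were kept. The main test was quasi-likelihood F in edgeR 4.0.16 (R 4.3.3) with TMM scaling, on the groups compared, with Benjamini-Hochberg adjustment over all genes kept. DESeq2 1.42.0, exactTest, other scalings, no filter, 1 fit over 22 libraries, leaving out each library and a block per mouse were alternatives, and the fits were tested on simulated data. TRAP and total-RNA libraries of 1 number were taken as the same mouse. The sample titles name the treatment and the pool and not the mouse. Deviations from the group means correlated by 0.102 to 0.622 between libraries of 1 number. Between different numbers of a treatment the mean was from -0.119 to -0.071. Between treatments, the tests set a difference against the spread between mice. For the pools and for differences of a treatment effect between them, the main fit treats the TRAP and total-RNA libraries of a mouse as independent. Members named were a preset group of 20, each member called against Control with up to 3 of the smallest p per direction, the 6 largest differences per direction between the pools in Control, and the members called between treatments. The members, these rules and the gene lists were chosen with earlier results of these data known. Upstream sequences came from RefSeq (GRCm38.p6), which had 55 of the 73 members. Some results on single genes are not reported here.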

Additional observations from a re-analysis of the deposited data

Results flagged for a closer look

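In 8 of the 160 groups of 4 mice examined (40 members), the highest mouse lay apart from the other 3 by Dixon's ratio. Chance gives about 1 in 20 such groups. With EtOH in total-RNA, mouse 9 was the high one for Dusp19, at 10.8 normalized CPM against 4.92 to 5.91 in the others, and for Map3k12, at 87.8 against 76 to 77.1. In EtOH_TRAP, the same mouse was high for Dusp23 (2.31 against 0.442 to 0.696). With EtOH + ABT-888 in total-RNA, Dusp3 was at 216 in mouse 3 against 161 to 169, Dusp10 at 8.76 in mouse 10 against 5.66 to 6.08, and Map4k1 at 1.37 in mouse 11 against 0.676 to 0.757. In EtOH + ABT-888_TRAP, mouse 6, the shallowest library, was high for Map3k6 (4.8 against 3.69 to 3.86) and for Map3k11 (28.2 against 25.2 to 25.5).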

How the results depend on the processing

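The 4 members called in EtOH_TRAP against Control_TRAP became 9 by exactTest, 10 by DESeq2, 8 with no filter and 11 in a single fit over 22 libraries. The 16 called in total-RNA became 1 in that single fit. For EtOH + ABT-888 against Control, the 0 called became 1, 1, 5 and 1 in TRAP under the same 4 settings in that order, and 5, 5, 5 and 1 in total-RNA, with 1 under RLE scaling. Leaving out each library in turn, the count ran from 1 to 8 for EtOH in TRAP (2 without Control mouse 1, EtOH mouse 2 or EtOH mouse 5), from 6 to 22 for EtOH in total-RNA (22 without EtOH mouse 9), from 0 to 3 for EtOH + ABT-888 in TRAP and from 0 to 5 in total-RNA. It ran from 35 to 42 between the pools in Control, 28 to 34 in EtOH and 23 to 32 in EtOH + ABT-888. Log2 fold changes near 0 turned in sign: Map3k6 in EtOH_TRAP against Control_TRAP ran from -0.239 (without Control mouse 4) to 0.668, with -0.04 without EtOH mouse 2. Dusp1 in EtOH_TRAP ran from -0.14 (without EtOH mouse 8) to 0.176, with -0.07 without Control mouse 4, and in EtOH + ABT-888_TRAP from -0.18 (without mouse 3) to 0.331. The cause was not tested.

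With a block for each mouse, the pairing gave 45, 42 and 38 members called between the pools in Control, EtOH and EtOH + ABT-888, against 40, 31 and 31 without it. Of all genes, 62.5%, 58.8% and 54.3% were called with the block. It gave 0 called for each difference of a treatment effect between the pools, with 10 and 8 members at an unadjusted p under 0.05. Comparisons between treatments hold different mice and cannot be blocked. Depth limited the low members: 8 of 73 had too few counts to be tested.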

Other observations

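EtOH + ABT-888 mouse 3, which had the highest summed microglia markers of its group in total-RNA (180 normalized CPM, against 61.9 to 137 in the other 3), also had the highest Mapk11 of the group in both pools (10.7 in TRAP and 25.7 in total-RNA). The same mouse had the highest Dusp3 (199 and 216) and the highest Dusp19 (16.2 and 10.9) of its group in both pools. In EtOH_TRAP, mouse 2 had the highest summed microglia markers (31.8) but Mapk11 at 2.62, below mouse 9 (7.68 and 6.12). In EtOH_total-RNA, mouse 8 was the highest for both (112 and 11.8). The mice and members named here were chosen after their values were seen, and the relation was not tested.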
